A study of Mus musculus with 17 samples.

Results

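Aqp4 and 8 further genes of astrocytes, Gfap, Slc1a2, Slc1a3, Aldoc, Gja1, Kcnj10, Glul and S100b, were followed in the hypothalamus of diabetic and obese mice. They are 9 of the 12393 genes the array names, with 21 of its 22690 probe sets, taken as every probe set whose only platform gene symbol was one of the 9. Aqp4 was chosen by its lower signal in both disease models in an earlier look at these same arrays, and the other 8 were named beside it as genes of the same cell type. Differences from control are therefore described with their standard errors (SE) and 95% confidence intervals, and no p-value against control is printed for any of the 9 genes. Where counts past a threshold against control are given for them, they are no test of these genes. Neither the differences nor the counts are evidence apart from that choice.

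RNA was measured on 17 Affymetrix mouse arrays, 1 per hypothalamus, from male C57Bl/6 mice 9 weeks old. The 6 STZ mice were wildtype and had received streptozotocin, which destroys the pancreatic cells that make insulin, as 1 intraperitoneal injection of 200 µg/g body weight. The 5 ob/ob mice lacked functional leptin, the hormone of fat tissue that restrains feeding, in every cell, and the labels give no injection specific to them. The 6 Control mice were wildtype and were injected with vehicle. The samples were whole hypothalamus, so fewer astrocytes and less RNA per astrocyte cannot be told apart.

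Astrocytes are the glial cells that wrap synapses and blood vessels. Aqp4 encodes their water channel, which is held in the endfeet around vessels by the dystrophin complex, beside the potassium channel Kir4.1 encoded by Kcnj10. The same cells take up glutamate through the transporters encoded by Slc1a2 (GLT-1) and Slc1a3 (GLAST), turn it into glutamine with the synthetase encoded by Glul, and are coupled by gap junctions of connexin 43, encoded by Gja1. Aldoc encodes a glycolytic aldolase, S100b a calcium-binding protein and Gfap the intermediate filament that accumulates in reactive astrocytes.

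The values were MAS5 signals, brightness on a linear scale. Their median ran from 637.6 to 707 between arrays, the 2% trimmed mean was 1500.4 on each of the 17, and correlations between arrays ran from 0.954 to 0.972. All 21 probe sets of the 9 genes passed the filter on dim probe sets, a geometric mean signal of 435, as did 13576 of 22626 probe sets in all. Each gene is represented by its brightest probe set, and differences are in log2 units from limma. Of a wider list of 42 astrocyte genes, 35 had a probe set and 33 passed the filter. Signals of different probe sets are not set against each other, since each set of probes binds its own target with its own strength.

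Both Aqp4 probe sets had lower signals in the hypothalamus of STZ and of ob/ob mice, by 14 to 18% of the control level. The representatives of the other 8 genes stood within 15% of theirs, the farthest being Slc1a2 at 14.3% higher in STZ. Some of their other probe sets differed as much as Aqp4 or more. A Gja1 probe set was 24.6% higher in STZ, with an interval that included 0, and the dimmer Aldoc probe set 18.8% higher in ob/ob. The dimmer S100b probe set was 12.2% lower in ob/ob. On its brighter probe set Aqp4 had signals of 6486.2, 6021.9, 6026.9, 5615.3, 5877.5 and 6077 in the 6 STZ arrays. The 5 ob/ob arrays had 5785.7, 5861.7, 6029.8, 6346.2 and 5523.4. The 6 Control arrays had 7024.2, 6168.5, 7569.9, 7338.5, 6982.5 and 8384.2. Every STZ and ob/ob array lay below the control median of 7181.4. The groups overlapped through a single control array, the second, at 6168.5: 5 of 6 STZ and 4 of 5 ob/ob arrays lay below it.

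The mean Aqp4 signal was 6017.5 ± 284.5 in STZ (SD, n = 6), 5909.4 ± 304.9 in ob/ob (SD, n = 5) and 7244.6 ± 733.3 in Control (SD, n = 6). STZ minus Control was -0.26 ± 0.058 (SE), a 16.7% lower signal, with an interval from -0.38 to -0.14. For ob/ob minus Control it was -0.29 ± 0.060 (SE), or 18.2% lower, with an interval from -0.42 to -0.16. Both intervals share the same 6 control arrays, so the models do not give separate evidence on the control level.

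The dimmer Aqp4 probe set ran between 3067.4 and 3814.6 with a median of 3231.5 in STZ. In ob/ob arrays its signals were 3273.2, 3273.6, 3525.4, 3553 and 3200.4, and in Control they ran from 3454 to 4586.2 with a median of 3942.4. The differences were -0.24 ± 0.067 for STZ minus Control and -0.22 ± 0.070 for ob/ob minus Control (SE). Here too every STZ and ob/ob array was below the control median, and the groups overlapped.

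**Figure D1:**
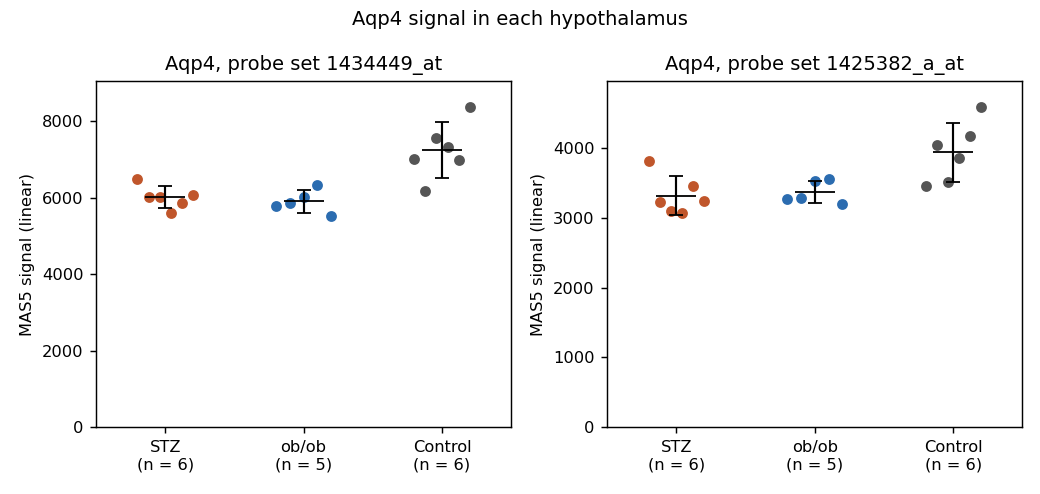
Aqp4 MAS5 signal (linear, from 0) in each hypothalamus for its 2 probe sets (brighter left, dimmer right), with STZ (n = 6), ob/ob (n = 5) and Control (n = 6) from left to right; points are arrays, and lines and bars are means ± SD. On the brighter probe set the STZ mean is 6017.5 and the ob/ob mean 5909.4, against 7244.6 in Control, and a single control array at 6168.5 lies within their range.

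STZ and ob/ob hypothalami did not differ detectably in Aqp4. Choosing Aqp4 as lower in both models favours a small difference between them, so this comparison is not free of the choice. For ob/ob minus STZ the difference was -0.03 ± 0.060 (SE) on the brighter probe set, with an interval from -0.15 to 0.10, and 0.02 ± 0.070 on the other (limma, adjusted p = 0.9996 for both). A difference within these bounds was not detectable with 5 and 6 arrays.

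The calls of Aqp4 against Control follow from its choice and are not counted here. Of the 19 probe sets of the other 8 genes, 0 reached an adjusted p of 0.05 in limma in either comparison with control. In each of them 2 of the 19 had an unadjusted p under 0.05, the dimmer probe sets of Aldoc (higher) and S100b (lower), and 0 of the 8 representatives did. In STZ against Control, 0.0516% of the 13576 probe sets passed after adjustment, 8.24% had an unadjusted p under 0.05 and 0.567% had groups that did not overlap. In ob/ob against Control these shares were 0.125%, 11.9% and 1.91%. The 8 genes were named with both comparisons known, so nothing is read from their counts against these shares. In ob/ob against STZ, 0 of the 21 probe sets of all 9 genes passed after adjustment in limma. Of the 21, 0 had an unadjusted p under 0.05 (the smallest was 0.150). The shares over all probe sets were 0.0368%, 3.93% and 0.42%. For Aqp4 this comparison is not free of the choice either, since it was chosen as lower in both models. None of the 21 probe sets separated any pair of groups without overlap.

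**Figure D2:**
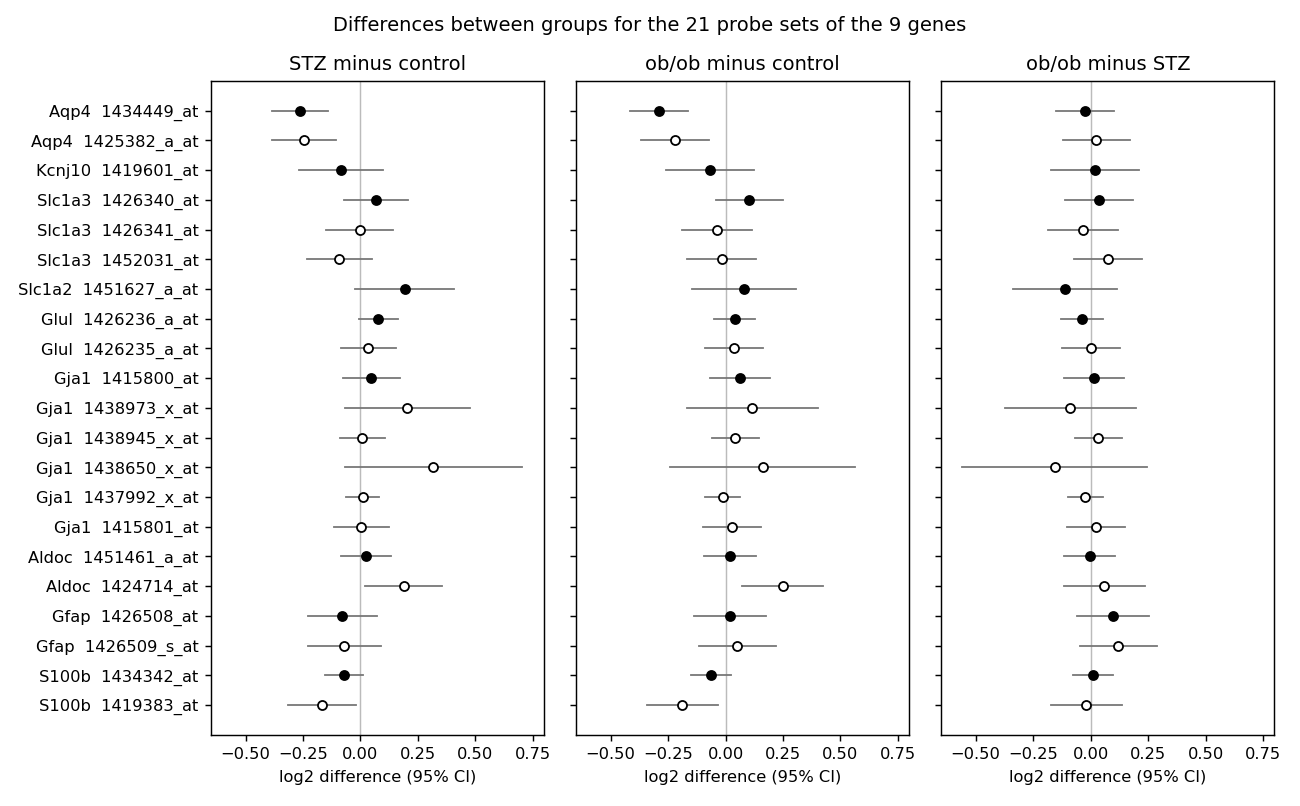
Log2 differences with 95% confidence intervals for the 21 probe sets, STZ minus Control, ob/ob minus Control and ob/ob minus STZ from left to right; filled points are the representative probe set of each gene. The Aqp4 points lie at -0.26 and -0.24 in the first panel and at -0.29 and -0.22 in the second, and near 0 in the third.

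Kcnj10, the channel that clears potassium at the same endfeet, had a single probe set with signals between 3763.6 and 5108 in STZ (median 4125.2), between 3693.5 and 4829.4 in ob/ob (median 4332.6) and between 3671.5 and 5365.2 in Control (median 4573.2). All 3 ranges overlapped widely. The differences from Control were -0.09 ± 0.087 for STZ and -0.07 ± 0.092 for ob/ob (SE), with intervals from -0.27 to 0.10 and from -0.26 to 0.12. Whether Kcnj10 and Aqp4 differed from each other in this was not tested.

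The representative probe sets of the glutamate genes had means above those of Control in both models. Slc1a3 had signals of 6277.5 to 7878.8 in STZ, 6431.3 to 7704.2 in ob/ob and 6023.3 to 7741.4 in Control on its brightest probe set. Its differences from Control were 0.07 ± 0.067 for STZ and 0.10 ± 0.070 for ob/ob (SE), and its other 2 probe sets gave -0.09 to 0.00 for STZ and -0.04 to -0.02 for ob/ob. Glul had signals of 19388.9 to 22102.7 in STZ, 19409 to 21531.1 in ob/ob and 18656.9 to 21022.2 in Control. Its differences were 0.08 ± 0.041 and 0.04 ± 0.043 (SE), and the other probe set gave 0.04 in both models. The Glul intervals ran from -0.01 to 0.16 for STZ and from -0.05 to 0.13 for ob/ob.

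Slc1a2 was measured by a single probe set, not far above the filter. It had signals of 666.8 to 807.6 in STZ (median 742.05) and 523.8 to 732.3 in Control (median 669.2). The ob/ob arrays had 792.1, 733.4, 554.6, 605.9 and 754.5. The difference from Control was 0.19 ± 0.10 in STZ and 0.08 ± 0.11 in ob/ob (SE), and both intervals included 0. The 2 lowest ob/ob values came from the arrays with high Ttr described below, and without them the ob/ob difference was 0.24.

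Gja1 had 6 probe sets, 4 of them of the cross-hybridizing _x_at kind. Its representative, the brightest of those not of that kind, had signals of 12402.7 to 14332.6 in STZ, 11379.2 to 14722.9 in ob/ob and 11490.1 to 14217.7 in Control. The differences were 0.05 ± 0.060 for STZ and 0.06 ± 0.063 for ob/ob (SE). The other 5 probe sets gave 0.00 to 0.32 in STZ and -0.01 to 0.16 in ob/ob. The largest of these had an SE of 0.18 and a control range of 2837.9 to 9120.8, and its interval included 0.

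Aldoc had 2 probe sets that differed in what they showed. The brighter had signals of 22056.5 to 25940.3 in STZ, 22998.8 to 24835.7 in ob/ob and 21361.4 to 27346.1 in Control, with differences of 0.02 ± 0.051 and 0.02 ± 0.054 (SE). The dimmer had 1282.4 to 1655 in STZ, 1411.8 to 1792.2 in ob/ob and 1131.1 to 1493.2 in Control. On it, 5 of 6 STZ and 5 of 5 ob/ob arrays were above the control median, with differences of 0.19 ± 0.080 and 0.25 ± 0.084 (SE). The deviations of the 2 probe sets from their group means had a Pearson r of -0.08 and a rho of -0.04 over 17 arrays (adjusted permutation p = 0.926 and 0.927; r of 0.00 without the 2 farthest arrays).

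Gfap, read in many studies as the sign of reactive astrocytes, had signals of 6283.3 to 8509.2 in STZ (median 7223), 6605.1 to 8508.1 in ob/ob (median 8106.4) and 6778.1 to 8628.7 in Control (median 7750.2). The differences from Control were -0.08 ± 0.072 for STZ and 0.02 ± 0.075 for ob/ob (SE), and the second probe set gave -0.07 and 0.05. The ob/ob difference was -0.05 without the 2 ob/ob arrays with high Ttr and 0.146 with the level of neighbouring-region genes as a covariate, so its sign was not settled. The intervals ran from -0.23 to 0.07 in STZ and from -0.14 to 0.18 in ob/ob.

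S100b had 2 probe sets, and both had lower means in the models. The brighter had signals of 8268.8 to 9572 in STZ, 8567.8 to 9183 in ob/ob and 8707.2 to 9691.4 in Control, with differences of -0.07 ± 0.039 and -0.06 ± 0.041 (SE). The dimmer had 4044.8 to 4974.2 in STZ and 4679.2 to 5516.7 in Control. Its ob/ob signals were 3968.8, 4392.3, 4068.7, 5447.5 and 4567. The differences on it were -0.17 ± 0.071 for STZ and -0.19 ± 0.074 for ob/ob (SE), with 6 of 6 STZ and 4 of 5 ob/ob arrays below the control median.

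Taking the 8 genes beside Aqp4 as a group, the median difference was 0.04 in STZ (5 of 8 higher) and 0.03 in ob/ob (6 of 8 higher), and it was 0.00 for both over all 7954 genes tested. The 8 differences ran from -0.09 to 0.19 in STZ and from -0.07 to 0.10 in ob/ob. Within each array the mean of the 8 was then set beside Aqp4, both relative to the control mean. Aqp4 minus this mean was -0.285 ± 0.082 in STZ (SD, -0.395 to -0.175), -0.314 ± 0.087 in ob/ob (SD, -0.432 to -0.2) and 0.00 ± 0.181 in Control (SD, -0.297 to 0.265). The mean of the 8 itself was 0.022 ± 0.045 in STZ, 0.025 ± 0.015 in ob/ob and 0.00 ± 0.063 in Control (SD). This distance repeats the difference for which Aqp4 was chosen, since the mean of the 8 lay near 0. One control array, the second, lay within the range of the models.

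**Figure D3:**
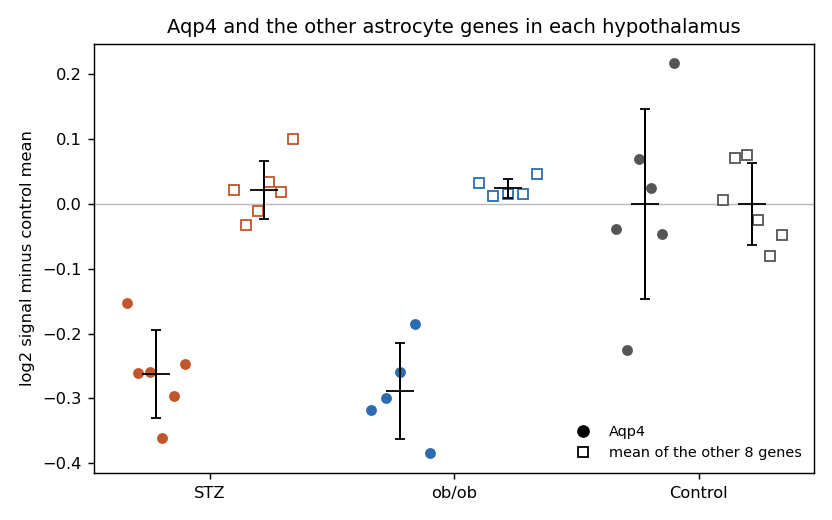
Log2 signal relative to the control mean for Aqp4 (filled circles) and for the mean of the other 8 genes (open squares) in STZ, ob/ob and Control from left to right; points are arrays and bars are mean ± SD. The Aqp4 circles of STZ and ob/ob lie between -0.385 and -0.153, and the squares of these arrays lie between -0.033 and 0.1.

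Deviations from the group means, which the choice of genes did not use, were compared over the 17 arrays. No relation of the 8 genes with Aqp4 passed a permutation p of 0.05 after adjustment over the 8. The furthest from 0 was Slc1a2 with Pearson r = -0.53 (permutation p = 0.0399, adjusted p = 0.319) and Spearman rho = -0.41 (permutation p = 0.114, adjusted p = 0.344); r was -0.42 without the 2 arrays farthest from the median Aqp4 deviation. Glul had r = -0.43 (permutation p = 0.0949, adjusted p = 0.38) and rho = -0.40 (permutation p = 0.139, adjusted p = 0.344), with r = -0.24 without those 2 arrays. Kcnj10 had r = 0.31 (permutation p = 0.326, adjusted p = 0.463) and rho = 0.49 (permutation p = 0.0736, adjusted p = 0.344). Its r was 0.70 without the 2 farthest arrays, the second and sixth controls, so that relation depends on which arrays are in it. The other 5 genes had r between -0.32 and 0.25 (adjusted permutation p at least 0.463) and rho between -0.25 and 0.36 (adjusted permutation p at least 0.344).

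Among the 9 genes the 36 pairs had a median r of 0.05, and 19 of the 36 were positive. The lowest was -0.65, between Gfap and Slc1a2, and the highest 0.49, between Aldoc and Glul. Probe sets of a single gene often did not vary together either: of 23 such pairs, 2 passed an adjusted permutation p of 0.05, with a median r of 0.03. These were the Gfap pair, at r = 0.82 and rho = 0.77 (adjusted permutation p = 0.0031 and 0.0106, r = 0.75 without the 2 farthest arrays), and the pair of the Gja1 representative with an _x_at probe set, at r = 0.70 and rho = 0.74 (adjusted permutation p = 0.00299 and 0.0106, r = 0.64 without them). The Aqp4 pair had r = 0.45 and rho = 0.42 (adjusted permutation p = 0.419 and 0.41), and -0.02 without the 2 farthest arrays.

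**Figure D4:**
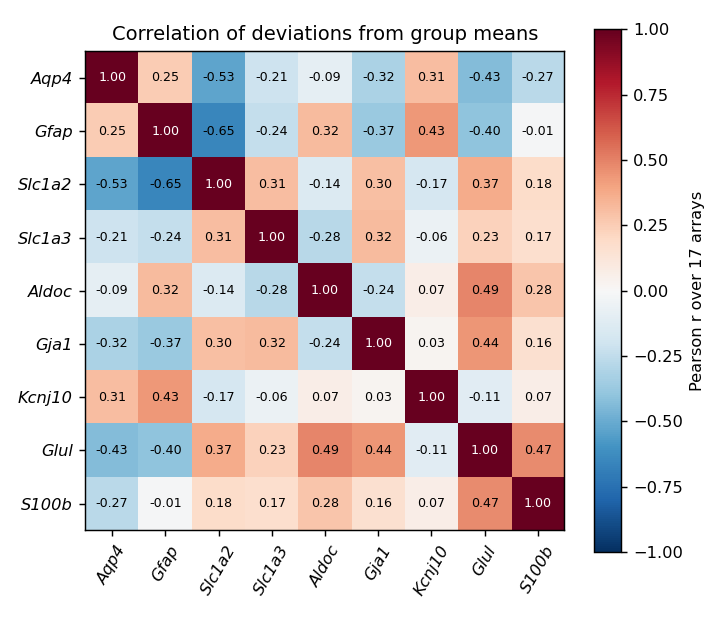
Pearson r between the 9 genes over 17 arrays, computed on the deviations of log2 signals from group means, with colour and printed value giving r. In the Aqp4 row the values run from -0.53 for Slc1a2 to 0.31 for Kcnj10.

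Of the other 7953 genes, those whose deviations were most like those of the representative Aqp4 probe set were Msmo1 and Idi1, enzymes of sterol synthesis, Fam174a, Zdhhc2, a palmitoyltransferase, and Fgf1, a growth factor. Their r was 0.85, 0.84, 0.84, 0.82 and 0.80 in that order over 17 arrays, and 0.55 to 0.75 without the 2 farthest arrays. The most opposite were Xpo6, an exportin, Ptprm, a receptor phosphatase, Nrp2, a semaphorin receptor, Slc4a4, the sodium bicarbonate cotransporter of astrocytes, and Ccsap, with r from -0.82 to -0.79 and from -0.65 to -0.46 without those arrays. With the other Aqp4 probe set the r of the first 5 genes was 0.29 to 0.61. These are the extremes of 7953 correlations among arrays that share their RNA preparation and scaling, and are given as a description. Msmo1 stood at -0.17 ± 0.056 in STZ and -0.13 ± 0.059 in ob/ob, and Idi1 at -0.25 ± 0.068 and -0.06 ± 0.071 (SE, relative to Control). The 10 genes had adjusted p of at least 0.247 in limma in both comparisons.

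The wider list of astrocyte genes held members on either side: 19 of 33 had lower means in STZ and 18 of 33 in ob/ob. In limma 0 of its 33 tested genes passed in either comparison with control. At an unadjusted p under 0.05 there were 9 in STZ, 5 higher and 4 lower, and 9 in ob/ob, 6 higher and 3 lower. That is 27.3% of the list in each, where 8.52% of all 7954 genes in STZ and 12.1% in ob/ob had such a p; the list was not tested against other genes. The median difference was -0.03 in STZ and -0.04 in ob/ob. Mlc1, a membrane protein of the endfeet, had signals of 2895.8 to 4360.8 in STZ (median 3361.2), 3276.9 to 4089.9 in ob/ob (median 3399.9) and 4108.7 to 4860.3 in Control (median 4196.6). Its ob/ob and control arrays did not overlap, and 5 of 6 STZ arrays were below the control median. Its differences were -0.33 ± 0.083 and -0.26 ± 0.087 (SE; limma, adjusted p = 0.204 and 0.221), the same side as Aqp4. Pla2g7, a phospholipase, stood at -0.24 ± 0.067 in ob/ob (limma, adjusted p = 0.149). On the other side were Htra1, a secreted protease, at 0.21 ± 0.049 in STZ (0.12 on its other probe set), Cyp4f15, a fatty acid hydroxylase, at 0.36 ± 0.10 in STZ and 0.42 ± 0.11 in ob/ob, and Mt2, a metallothionein, at 0.28 ± 0.076 in ob/ob (limma, adjusted p from 0.107 to 0.276). In ob/ob 3 of the 33 genes did not overlap with Control, against 139 of all 7954 genes. Mlc1, lower, and Cyp4f15, higher, were among the 3. In STZ it was 0 of the 33, against 39 of the 7954. Aldh1l1, a pan-astrocyte marker, was at -0.07 ± 0.055 in STZ and 0.04 ± 0.058 in ob/ob (SE).

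Of the genes of the dystrophin complex at the endfoot (dystroglycan, dystrophin, utrophin, dystrobrevin and their partners), 9 of 13 were tested and 0 passed in limma. The 9 held no syntrophin gene. Sntb1 and Sntb2, which encode syntrophins, were under the filter at geometric mean signals of 312 and 137.7. At an unadjusted p under 0.05, 3 of the 9 were lower in STZ (33.3%, against 8.52% of all genes) and 1 was lower in ob/ob (11.1%, against 12.1%). The median differences of the list were -0.06 and -0.02. Dag1, the dystroglycan that binds laminin, had signals of 2883.6 to 3194.9 in STZ and 3210.4 to 3508.2 in Control, which did not overlap (-0.11 ± 0.040, limma, adjusted p = 0.475). Its other 3 probe sets gave -0.12 to -0.04. Dag1 was the 1 gene of the 9 without overlap in STZ, against 39 of all 7954 genes. Utrn, the dystrophin relative utrophin, stood at -0.28 ± 0.12 in STZ and -0.29 ± 0.13 in ob/ob, and Dmd at -0.21 ± 0.095 in STZ (limma, adjusted p from 0.355 to 0.557). The other Utrn probe set gave -0.03 and -0.04, and the other Dmd probe set -0.11 in STZ. Of 11 other aquaporins 8 had a probe set, and all 8 were under the filter, at geometric mean signals of 22.09 to 296.3. Aqp4 was thus the sole aquaporin tested.

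The remaining functional lists held 0 genes that passed in limma. Beside the counts that follow, 8.52% of all 7954 genes in STZ and 12.1% in ob/ob had an unadjusted p under 0.05. In the glutamate and glutamine list, 8 genes were tested, with 3 at an unadjusted p under 0.05 in STZ (37.5%) and 1 in ob/ob (12.5%). Of the 3 in STZ, Slc38a3, a glutamine transporter, stood at -0.17 ± 0.061, Glud1 at -0.09 ± 0.043 and Slc38a2 at 0.16 ± 0.075 (SE, limma, adjusted p = 0.456, 0.594 and 0.576). The list held 4 higher and 4 lower means in each model. In the list of potassium and volume control, 10 genes were tested, with 2 in STZ (20%) and 3 in ob/ob (30%) at an unadjusted p under 0.05. Mlc1, lower in both models, was 1 of these in each and is also counted in the wider astrocyte list. Lrrc8a, a subunit of the volume-regulated anion channel, stood at 0.13 ± 0.057 in STZ and 0.17 ± 0.059 in ob/ob (SE, limma, adjusted p = 0.546 and 0.26). Of 5 connexins and pannexins beside Gja1, 2 (40%) were higher at an unadjusted p under 0.05 in each model. They were Gjb6, connexin 30 of astrocytes, at 0.12 ± 0.049 and 0.14 ± 0.051, and Gjb2, connexin 26, at 0.31 ± 0.12 and 0.29 ± 0.12 (SE, limma, adjusted p from 0.264 to 0.531). Gjb6 is also counted in the wider astrocyte list.

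Genes of reactive astrocytes were split in direction, with 9 of 13 higher in STZ and 7 of 13 in ob/ob. Of 27 with a probe set, 14 were under the filter. Of the 13 tested, 0 passed in limma, and the medians were 0.05 in both models. An unadjusted p under 0.05 was found for 1 in STZ (7.69%, against 8.52% of all genes) and 3 in ob/ob (23.1%, against 12.1%). The 3 in ob/ob were S100a10 and Tm4sf1, both lower, and Fbln5, higher. Tm4sf1 stood at -0.25 ± 0.097 and Fbln5 at 0.28 ± 0.11 in ob/ob (SE; limma, adjusted p = 0.3065 and 0.331). Tm4sf1 is also counted in the tanycyte and ependymal list below. The 1 in STZ was Slc10a6, a sodium-dependent carrier, at 0.37 ± 0.15 in STZ and 0.30 ± 0.16 in ob/ob (SE; limma, adjusted p = 0.531 and 0.481). Nes, the progenitor filament nestin, stood at 0.22 ± 0.17 in STZ (SE; limma, adjusted p = 0.772). S100a10, an annexin partner, stood at -0.18 ± 0.14 in STZ and -0.41 ± 0.14 in ob/ob (SE; limma, adjusted p = 0.77 and 0.251), and its other probe set at -0.01 and -0.09.

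**Figure D5:**
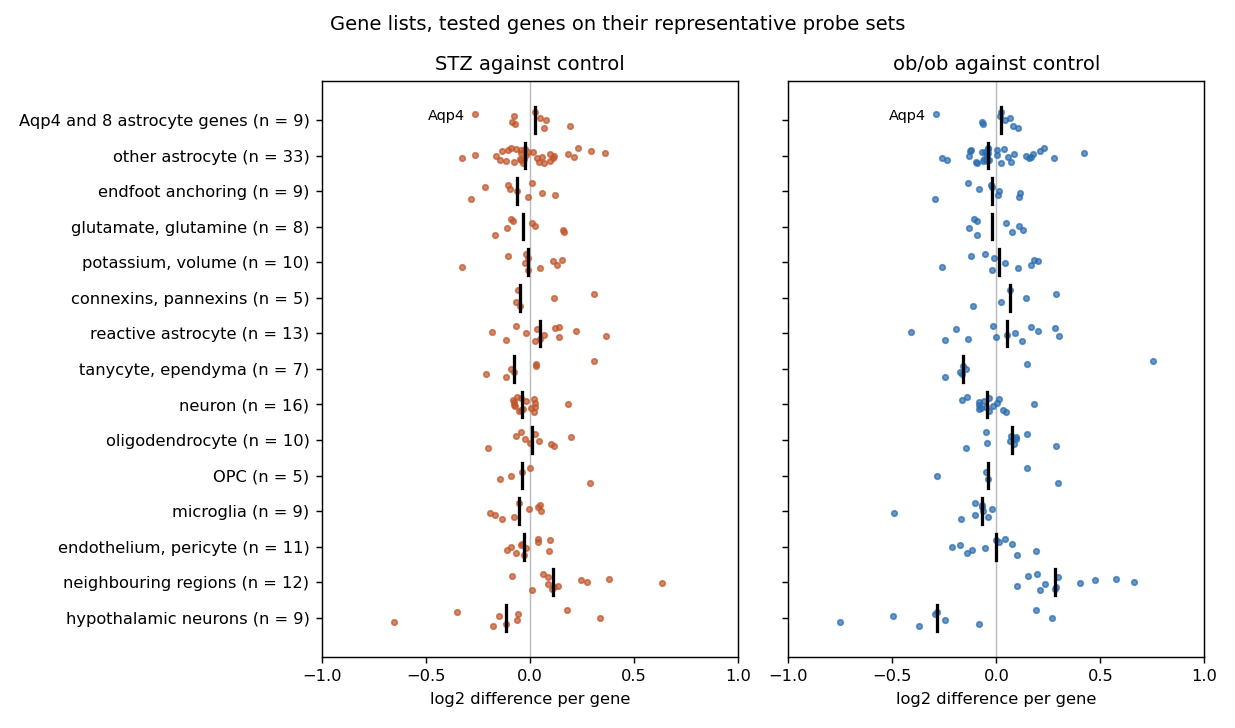
Log2 difference from Control of each tested gene, by gene list from top to bottom, for STZ (left) and ob/ob (right); points are genes on their representative probe sets, bars are list medians and n is the number of genes tested. Aqp4 lies at -0.26 and -0.29, and the medians of the neighbouring-region list are 0.11 in STZ and 0.28 in ob/ob.

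Markers of other cells and regions were set beside these values. The tested markers of neurons (16), oligodendrocytes (10), their precursors (5), microglia (9) and endothelium with pericytes (11) had 0 genes past the threshold in limma. In each comparison with control 1 or 2 of each list had an unadjusted p under 0.05, with medians from -0.07 to 0.08. These were 6.25 to 20% of a list in STZ and 10 to 40% in ob/ob, against 8.52% and 12.1% of all genes. Of the 9 microglial genes 6 had lower means in STZ and 9 in ob/ob, and Cx3cr1, the fractalkine receptor, stood at -0.19 ± 0.12 in STZ and -0.49 ± 0.12 in ob/ob (SE; limma, adjusted p = 0.698 and 0.106). Of the neuronal genes 10 of 16 had lower means in STZ and 11 of 16 in ob/ob. The part of these cells in the astrocyte values was not tested. Of 7 tested tanycyte and ependymal genes 0 passed, with 0 in STZ and 3 in ob/ob (42.9%) at an unadjusted p under 0.05. Means were lower for 4 of the 7 in STZ and 5 in ob/ob, with medians of -0.075 and -0.159. Of the 3 in ob/ob, Crym, a thyroid hormone binding protein, was higher at 0.75 ± 0.20. Nnat at -0.17 ± 0.048 and Tm4sf1 at -0.25 ± 0.097 were lower (SE, limma, adjusted p = 0.119 for Crym, 0.146 for Nnat and 0.3065 for Tm4sf1). Of 12 tested genes of nearby striatum, cortex and thalamus, 11 had higher means in STZ and 12 in ob/ob. Of the 12, 0 passed the threshold, and 1 in STZ (8.33%) and 6 in ob/ob (50%) had an unadjusted p under 0.05. Their mean log2 level ran from 10.447 to 10.806 in STZ, from 10.727 to 10.953 in ob/ob and from 10.214 to 10.742 in Control. With this level as a covariate the Aqp4 difference was -0.245 in STZ and -0.256 in ob/ob. Of 9 tested hypothalamic neuron genes 7 were lower in each model, and Pomc, the melanocortin precursor, passed in both (limma, adjusted p = 0.0384 in STZ and 0.0121 in ob/ob). An unadjusted p under 0.05 was found for 3 in STZ (33.3%), 2 of them lower, and 7 in ob/ob (77.8%), 6 of them lower. The mean log2 level of the 9 ran from 11.424 to 11.752 in STZ, from 11.292 to 11.531 in ob/ob and from 11.556 to 11.815 in Control. The part of these hypothalamic genes in the astrocyte values was not tested.

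All 6 measured choroid plexus genes were under the filter, but Ttr, their most abundant transcript, had signals of 111.2, 110.7, 2121.4, 6654.4 and 304.1 in the ob/ob arrays, against 27.7 to 90.1 in STZ and 22.1 to 49.5 in Control. The other 5 genes did not exceed 421.4 on any array. The summed signal of the 6 genes ran from 1158.3 to 7684.5 in ob/ob, from 807.9 to 1244.7 in STZ and from 888.2 to 1195.4 in Control. The sum adds probe sets of unlike binding strength, and Ttr alone gave 6654.4 of the highest value. The 2 ob/ob arrays with the highest Ttr, replicates 3 and 4, also hold the highest Aqp4 signals of their group. Without both, the Aqp4 difference of ob/ob from Control was -0.334, against -0.289 with them.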

How the data were processed

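The authors deposited 1 MAS5 signal per probe set and array, an intensity on a linear scale (MAS5 is named per the submitters' processing notes; its version and scaling target are not given in the sources used here). Array titles gave the group and the replicate number. From these values log2 signals were taken without further normalization, control probe sets were left out, and the dimmest probe sets, below percentile 40 of the mean log2 signal, were not tested. One model of 3 group means over the 17 arrays was fitted with limma 3.58.1 in R 4.3.3 (lmFit, then eBayes with a trend), with Benjamini-Hochberg adjustment over 13576 probe sets and a threshold of 0.05. Symbols came from the platform annotation: 20380 probe sets had 1 symbol, 691 several and 1555 none. The brightest probe set stood for each gene, and _x_at probe sets only where a gene had no other. No coordinates are given, since the files name no genome build.

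Correlations were computed on deviations from group means with 100000 permutations within groups, adjusted over 8 relations with Aqp4 and 23 pairs of probe sets of a gene. The 9 genes and the 16 further gene lists were chosen with earlier results of these data known. Named were all 9 genes, the 5 genes most and the 5 least like Aqp4, and up to 3 genes of smallest p per list; Aldh1l1 and Ttr were chosen after their values were seen. Alternatives covered the filter, normalization, an offset of 50, probe set averaging, the trend, array weights, the groups fitted, a region covariate, the replicate block and leaving out arrays. The fit was tested on simulated data. The number of arrays limits the precision of every value. The limma p-values set a group difference against the spread between these hypothalami within groups. The permutation p-values are for correlations of deviations from group means.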

Additional observations from a re-analysis of the deposited data

Results flagged for a closer look

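Over 21 probe sets in 3 groups, 63 sets of arrays were examined for a single array far from the others, and 1 had one. On the second Gfap probe set the sixth Control array had a signal of 5528.6, while the other 5 controls had 4240.5 to 4536.6. Its gap to the next array was 0.77 of the range of the group, above the critical value of 0.625 for 6 arrays. Chance gives such an array in about 5% of groups.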

How the results depend on the processing

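The Aqp4 difference kept its sign under every alternative run: -0.308 to -0.22 in STZ and -0.334 to -0.246 in ob/ob when each array was left out in turn, and -0.277 to -0.244 and -0.334 to -0.255 under the other alternatives. Of the 9 genes, 0 were past the limma threshold in both comparisons with control, but 1 was in ob/ob with quantile normalization and with array weights. Leaving out each array gave 0 to 1 in STZ and 0 to 1 in ob/ob, the 1 arising without the second control array. In each case it was Aqp4, whose call its choice from these comparisons favours, so these counts are no test of it. The cause was not tested. The median difference over the 9 genes in STZ was -0.023 with a filter at the 60th percentile, which drops Slc1a2, against 0.025. Averaging all probe sets of a gene gave 0.134 for Aldoc and -0.125 for S100b in ob/ob, since their second probe sets then count equally. Deviations of same-numbered arrays of different groups had r from -0.165 to 0.109, which does not exclude that the arrays were paired. With the replicate block the Aqp4 differences were -0.263 in STZ and -0.266 in ob/ob, and 0 of the 9 genes passed in each comparison. Leaving out the 2 ob/ob arrays with high Ttr, chosen after seeing the data, gave 0 of the 9 genes past the threshold. Over all probe sets the number past the threshold ran across the alternatives from 0 to 18 in STZ against Control (7 as reported), from 0 to 43 in ob/ob against Control (17) and from 1 to 10 in ob/ob against STZ (5). The 0 in ob/ob against Control arose with the region covariate, and also without the 2 ob/ob arrays with high Ttr. Small differences of the other 8 genes are limited by 5 or 6 arrays a group.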
